A study of Rattus norvegicus with 24 samples.

Results

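The cathepsins described here are 8 genes, Ctsb, Ctsc, Ctsd, Ctse, Ctsh, Ctsk, Ctsl and Ctss, out of 4736 named genes measured. Every probe set whose platform symbol is 1 of these names was taken, which gave 11 of 8740 probe sets, and all 11 passed the filter on dim values. RNA came from 2 muscles of the rat, the extraocular muscles that turn the eye (EOM) and the extensor digitorum longus, a fast muscle of the hindlimb (EDL). Each was sampled at 6, 18 and 30 months of age, with 4 arrays in each of the 6 groups (EOM at 6, 18 and 30 months, then EDL at 6, 18 and 30 months). Each array held RNA pooled from the tissue of 4 animals, so the spread between replicates is the spread between pools. No treatment or allele is named for any group, and the sources used here give neither the strain nor whether the EOM and EDL pools came from the same animals.

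Cathepsins are proteases that work mainly in the acid interior of lysosomes, where they break down proteins delivered by endocytosis and autophagy. Ctsb, Ctsc, Ctsh, Ctsk, Ctsl and Ctss are cysteine proteases, and Ctsd and Ctse are aspartic proteases. In muscle, lysosomal proteolysis runs beside the ubiquitin-proteasome system and the calpains, and Ctsl transcripts are known to rise in several kinds of muscle wasting. Ctss is found mostly in cells that present antigen, and Ctsk is best known from osteoclasts, the cells that resorb bone.

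EOM and EDL differed in most of these genes, and 1 of them, Ctsl, was called for age. In the main fit, limma without a block, Ctse was not called for age. It was called, lower in EOM at 18 against 6 months, with the replicate number as a block (limma adjusted p = 0.0187). Some other settings without a block also called it, and most did not. Ctse was far higher in EOM, and Ctsk, Ctss, Ctsh and Ctsb were moderately higher. The brighter Ctsl probe set was higher in EOM at 6 and 18 months and lower in EOM at 30 months, when its mean in EDL was the highest of the 6 groups. The main fit made no call for either probe set of Ctsc or of Ctsd in any of the 13 comparisons. Each Ctsd probe set was called under an alternative setting, as given below.

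Levels are the deposited intensities in arbitrary units. For the tests, values below the 25th percentile of their own array (the floor, 21.4 to 34.5 units) were set to it before taking log2. A call means that limma's p for a probe set, adjusted over all 5741 tested, was under 0.05. Log2 differences are given with their standard error (SE), and precision is limited by how many arrays there are.

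Most markers of the muscles went with the labels. Of 7 genes of the extraocular muscle fibre, 5 were higher and 0 lower in EOM over the mean of the ages, and all 9 tested genes of limb and fast fibre were lower. At 6 months alone, Myh7 (log2 -1.06) and Myh6 (-1.32) of the extraocular list were called lower in EOM. Both samples held other cells too, and in bulk RNA fewer cells of a type and less RNA per cell cannot be told apart. Over the mean of the ages, 10 of 14 tested genes of orbital gland and conjunctival epithelium, 6 of 8 of fibroblasts, 3 of 4 of erythroid cells, 3 of 5 of T and NK cells and 3 of 8 of macrophages were higher in EOM, with none lower. Over all 3419 named genes tested, 23.4% were called higher and 20% lower in that comparison. Of the markers of mast cells (3 tested), dendritic and B cells (4) and osteoclasts (1), none was called in that limma comparison. A few arrays stood apart. Replicate 3 of EDL at 6 months had a summed macrophage marker level of 6623 units, against 1773 on the lowest array of its group. Replicate 3 of EOM at 30 months had the lowest sum of its group, 2086 units against a highest of 4489. Replicate 2 of EDL at 18 months had the lowest of all 24 arrays, 1191.5 units, and replicate 1 of EDL at 30 months had the lowest median correlation to its group (Spearman 0.879).

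Cathepsin E (Ctse, Entrez gene 25424), an aspartic protease of endosomes known from gastric and other epithelia and from immune cells, separated the muscles completely. On the EOM arrays, replicates 1 to 4 read 2606.5, 2274.5, 4336 and 3378.5 units at 6 months, 732, 1050.1, 1265 and 1094.5 at 18 months, and 1177, 1871, 3247 and 2754 at 30 months. On the EDL arrays they read 22.1, 36.3, 57.1 and 16.4 units at 6 months, 74, 15.4, 67.5 and 59.3 at 18 months, and 22.3, 39.8, 22.1 and 23.1 at 30 months. Every EOM array lay above every EDL array at each age. The lowest EOM value, 732 units, came from an 18-month array, and the highest EDL value, 74 units, also came from an 18-month array. The EDL values were close to the floor, with 1, 1 and 3 of 4 arrays at it at 6, 18 and 30 months and 1 of the 12 EDL arrays above the brightness filter. Ctse thus entered the tests through its EOM groups alone, the muscle in which it is high. Group means were 3149 ± 917, 1035 ± 223 and 2262 ± 920 units in EOM at 6, 18 and 30 months (SD, n = 4). In EDL they were 32.98 ± 18.1, 54.05 ± 26.5 and 26.82 ± 8.66 units.

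The log2 difference of Ctse, EOM minus EDL, was 5.63 (SE 0.21, 49.4-fold, limma adjusted p = 1.97e-16) over the mean of the ages. At 6, 18 and 30 months it was 6.52, 4.34 and 6.02, and all were called. The size of the fold depends on how values near the floor are handled, since the EDL side is barely above it. With log2(value + 50 units) in place of the floor the mean difference was 22.5-fold, and with the floor at the 10th percentile it was 56.9-fold. Markers of orbital gland and conjunctival epithelium moved with the same contrast, with summed levels of 4130 to 35582 units over the EOM arrays and 713 to 7942 over the EDL arrays. Ctse read 22.1 to 39.8 units on the EDL arrays at 30 months, where that sum was 3494 to 7942 units. That sum does not stand for the whole list. In EDL at 30 against 6 months limma called Klk1 (log2 4.92), Krt18 (2.61) and Krt8 (2.14) higher. None of the other tested genes of the list was called, with values from -0.71 (Smr3b) to 1.20 (Cldn3).

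Within EOM, Ctse was lowest at 18 months, and the 4 arrays at 18 months did not overlap those at 6 months. The change at 18 against 6 months was -1.59 on the log2 scale (SE 0.37) and was not called (limma adjusted p = 0.0898). With the replicate number as a block it was called (adjusted p = 0.0187). Over 37 alternative settings the adjusted p was 0.00253 to 0.999, with 7 calls. The F test of any age effect in EOM gave an adjusted p of 0.257 for Ctse. It called 0 of the 11 cathepsin probe sets in limma, where 0.105% of all probe sets were called. At an unadjusted p under 0.05 it took 1 of the 11, Ctse, and the share of all probe sets at that threshold is not given. By mean level EOM came in the order 6, 30 and 18 months, and neighbours in that order overlapped. All 3 EDL groups lay below EOM at 18 months without overlap, and being near the floor they are not ranked among themselves. Differences between the muscles in the age change of Ctse are not given, since its EDL side lies at or near the floor. Of the 14 tested epithelial markers limma called none in EOM at 18 against 6 months, where 0.205% of all named genes tested were called either way. Their median log2 change was -0.46, against 0.05 over all genes. Krt5 (-1.74), Cldn7 (-1.35), Epcam (-1.21) and Krt8 (-1.16), a keratin, a claudin, an adhesion molecule and another keratin, had the lowest values. Others of the list went the other way, namely Muc1 (0.29), Muc4 (0.23), Smr3b (0.14) and Klk1 (0.03). The summed level of the list was 4130 to 35582 units on the EOM arrays at 18 months and 4870.5 to 21618.7 at 6 months. The part of epithelium in the Ctse values was not tested.

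The 3 genes most like Ctse over the 24 arrays were Pnpla3 (Pearson r 0.99), Tc2n (0.983) and Elovl5 (0.982), out of 3411 genes compared on the log2 scale. These correlations are descriptions. The arrays fall into separate muscle clusters, so a gene with a like gap between muscles scores highly whatever it does within one. Tc2n was also lowest in EOM at 18 months, with 287, 277, 571 and 438 units against 1129.5, 1155, 2219 and 1218 at 6 months, and its fall was called (log2 -1.87, limma adjusted p = 0.0387). Pnpla3 and Elovl5 had log2 changes of -1.33 and -1.06 and were not called (adjusted p = 0.126 and 0.175).

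**Figure D1:**
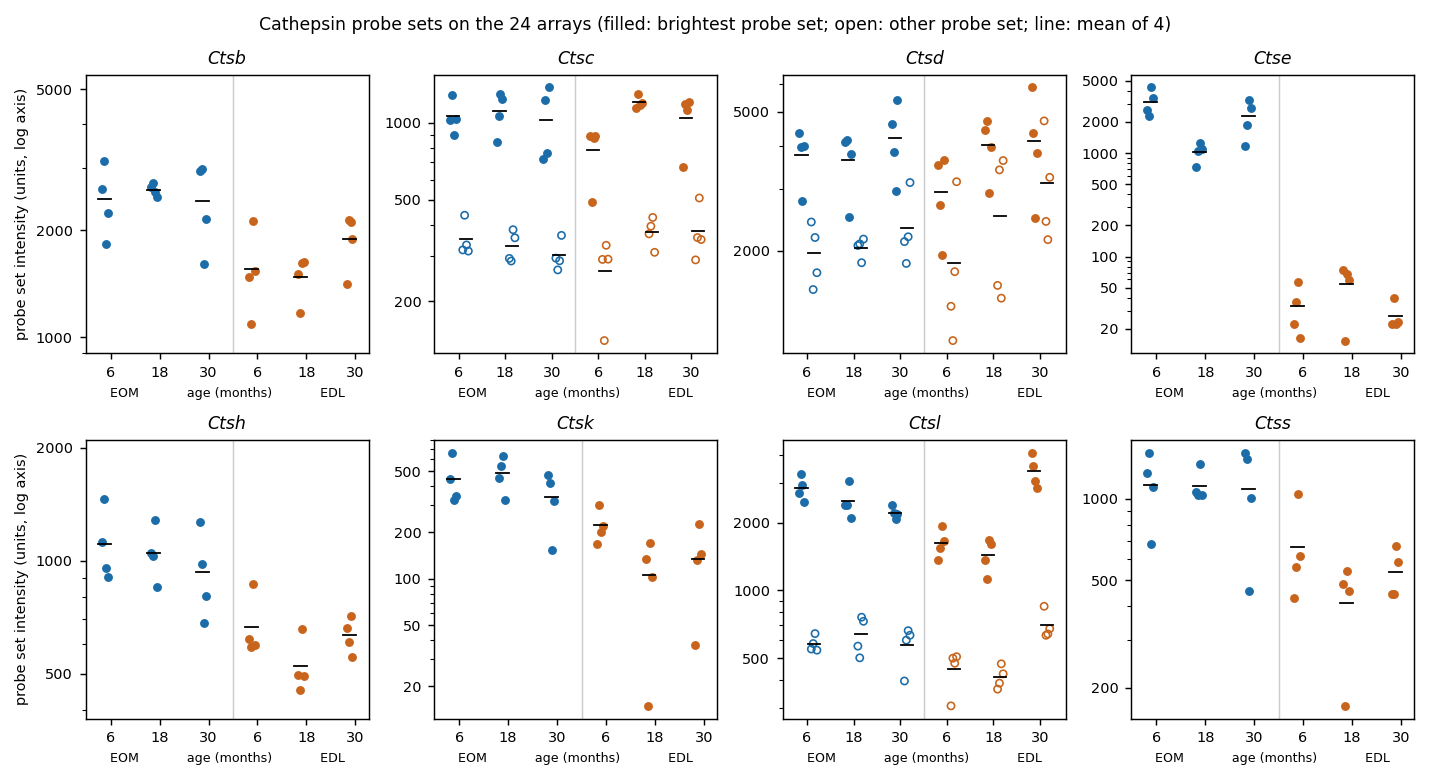
Intensity of each cathepsin probe set on every array (units, log axis), with EOM at 6, 18 and 30 months on the left of each panel and EDL on the right. Filled points are the brightest probe set of a gene, open points its other probe set, and lines the mean of 4 arrays. Ctse shows the widest gap between the muscles, and the filled Ctsl points of EDL at 30 months (2856 to 4102 units) lie above those of EDL at 6 and 18 months.

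Cathepsin L (Ctsl, 25697), a cysteine endopeptidase with a broad range of substrates, was the member that changed with age. On the EOM arrays, replicates 1 to 4 read 2707, 3289, 2938 and 2468 units at 6 months, 2407.5, 2402, 3072 and 2094 at 18 months, and 2399.6, 2213, 2085 and 2183 at 30 months. On the EDL arrays they read 1367, 1547, 1943 and 1664 units at 6 months, 1369.8, 1119, 1680.4 and 1606 at 18 months, and 4102, 3584, 3074 and 2856 at 30 months. These are values of the brighter probe set, rc_AI176595_s_at. In EDL the 4 arrays at 30 months lay above all 8 younger ones, while in EOM the 4 arrays at 30 months lay below the 4 at 6 months. Means were 2850 ± 350, 2494 ± 412 and 2220 ± 131 units in EOM at 6, 18 and 30 months, and 1630 ± 242, 1444 ± 254 and 3404 ± 556 units in EDL (SD, n = 4). In order of mean level, EDL at 30 months came first, followed by EOM at 6, 18 and 30 months and by EDL at 6 and 18 months. Among these neighbours, EOM at 30 months and EDL at 6 months did not overlap, and the other 4 pairs did.

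In EDL, Ctsl rose 2.08-fold at 30 against 6 months (log2 1.06, SE 0.16, limma adjusted p = 0.000265) and 2.36-fold at 30 against 18 months (log2 1.24, adjusted p = 3.95e-05). It was the 1 cathepsin probe set of 11 called at 30 against 6 months, where 1.86% of all probe sets tested were called. It was also the 1 called at 30 against 18 months, where 1.55% were. The F test of any age effect in EDL also called it alone of the 11 (adjusted p = 4.2e-05), where 2.4% of all were called. Between 6 and 18 months in EDL the log2 change was -0.18 (adjusted p = 0.926). In EOM the change at 30 against 6 months was -0.35 (SE 0.16) and was not called (adjusted p = 1, unadjusted p = 0.0377). The ageing response, taken as the EOM change less the EDL change, was -1.41 for 30 against 6 months (SE 0.23, adjusted p = 0.00198) and -1.40 for 30 against 18 months (adjusted p = 0.00204). For these responses 0.192% and 0.331% of all probe sets were called, and the brighter Ctsl probe set was the 1 cathepsin probe set among them each time.

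Between the muscles, that probe set was higher in EOM by a log2 difference of 0.81 at 6 months (SE 0.16, adjusted p = 0.000702) and 0.79 at 18 months (adjusted p = 0.000721). At 30 months it was lower in EOM (-0.60, SE 0.16, adjusted p = 0.00899), and the arrays of the muscles did not overlap at any of the ages. Its difference over the mean of the ages (0.33, adjusted p = 0.00544) therefore averages values of opposite sign. Within replicates 1 and 2 the EDL rise at 30 against 6 months was 1.40 (adjusted p = 0.0022), and within replicates 3 and 4 it was 0.72 and not called (adjusted p = 0.588). Without replicate 1 of EDL at 30 months, the highest array at 4102 units, the rise was 0.97 and still called (adjusted p = 0.00209).

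The second Ctsl probe set, S85184_g_at, was dimmer, and in EDL it moved the same way by less. In EDL its 4 arrays read 307, 500.1, 475 and 508 units at 6 months, 364, 387, 472 and 426 at 18 months, and 850.3, 632, 641 and 676 at 30 months. The 30-month arrays again lay above all 8 younger ones. Its log2 change at 30 against 6 months was 0.66 (SE 0.20) and did not pass (limma adjusted p = 0.106), but it did with the replicate number as a block (adjusted p = 0.0402). At 30 against 18 months the change was 0.76 (adjusted p = 0.0532). In EOM the dimmer set changed by 0.13 at 18 against 6 months, beside -0.20 in the brighter set. At 30 against 6 months the dimmer set changed by -0.04, beside -0.35. Its EOM means were 579 ± 45.9, 639.4 ± 125 and 573.2 ± 121 units at 6, 18 and 30 months, and the ageing response at 30 against 6 months was -0.70 (SE 0.28, adjusted p = 0.834). Against EDL it was called once, higher in EOM at 18 months (log2 0.62, adjusted p = 0.0253), and the call was lost without replicate 1 or 2 of EDL or replicate 3 or 4 of EOM at that age (adjusted p up to 0.0851). The suffix of the brighter set marks probes that need not be unique to 1 transcript, and whether this bears on the gap between the sets was not tested.

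The genes most like the brighter Ctsl probe set over the 24 arrays were Chrna1 (r 0.9), Gadd45a (0.869) and B2m (0.84). All 3 rose in EDL at 30 against 6 months, by log2 3.15, 3.27 and 1.14. Chrna1, the acetylcholine receptor alpha subunit, read 5468, 4866.5, 2691 and 2703 units on the EDL arrays at 30 months, so replicates 1 and 2 were its highest, as they were for Ctsl. These genes were picked by likeness over these same arrays. That they rose where Ctsl rose, with a like order of replicates, is therefore largely given by the choice. Some markers of other cells also moved in EDL at 30 against 6 months, where 1.4% of all named genes tested were called higher and 0.292% lower. Of 14 tested genes of orbital gland and conjunctival epithelium 3 rose (Klk1, Krt18 and Krt8), with summed levels of 3494 to 7942 units at 30 months and 713 to 1274 at 6 months. The rest of that list was not called, with log2 changes from -0.71 (Smr3b) to 1.20 (Cldn3). Of 8 of fibroblasts 3 fell, all collagens. Of 8 macrophage markers none was called, with sums of 2090 to 2562 units at 30 months and 1773 to 6623 at 6 months. The part of these cells in the Ctsl rise was not tested.

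**Figure D2:**
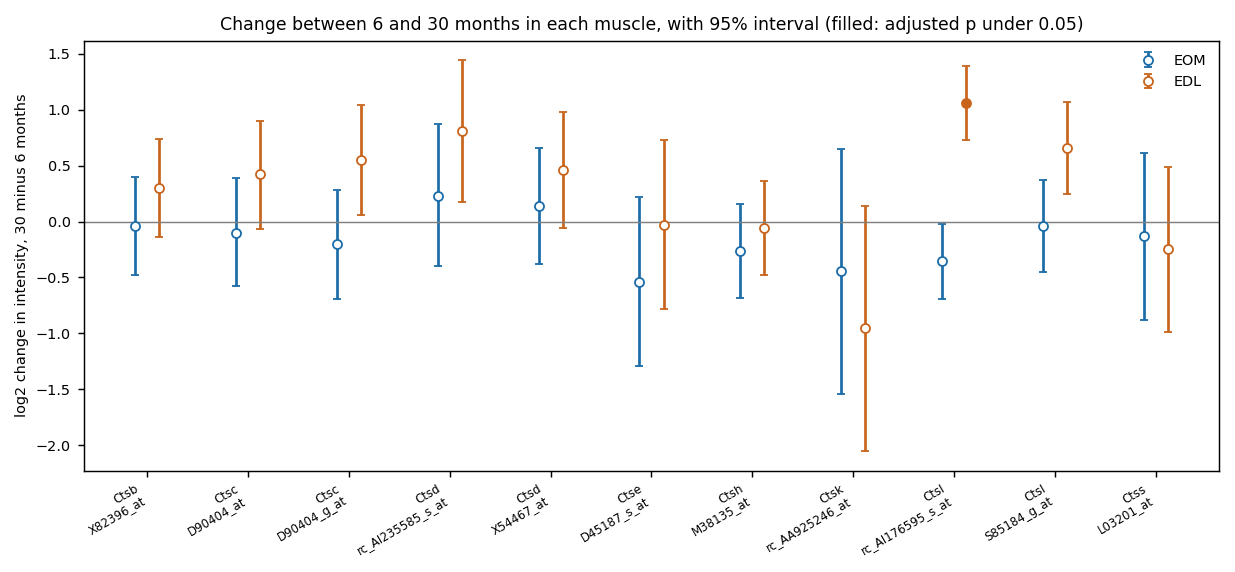
Log2 change in intensity at 30 against 6 months for the 11 cathepsin probe sets in EOM (blue) and EDL (orange), with 95% intervals. Filled points have an adjusted p under 0.05. The 1 filled point is the rise of the brighter Ctsl probe set in EDL (1.06), beside a change of -0.35 in EOM.

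In the main fit, without the replicate block, no other cathepsin probe set was called for age. With the block, Ctse in EOM at 18 against 6 months and the dimmer Ctsl probe set in EDL were called, as given above. Some other settings without the block also added calls, which are given with each gene and in the last section. In EDL at 18 against 6 months limma called 0 of 11, with 3 at an unadjusted p under 0.05, where 0.279% of all probe sets were called. In EOM it called 0 of 11 at 30 against 6 months, at 18 against 6 months and at 30 against 18 months, with 1 at an unadjusted p under 0.05 each time. The background was low there too, at 0.0348%, 0.174% and 0.0174% of all probe sets. A rule close to that of the study's design text, with no overlap between the arrays of 2 groups and a ratio of means over 2, took 1 cathepsin probe set in EOM at 18 against 6 months (Ctse, lower), where it took 0.941% of all probe sets as lower. For the ageing response at 18 against 6 months limma called 0 of 11, with 1 at an unadjusted p under 0.05, and 0 of all probe sets tested (0%).

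Among the muscles' other differences, the cysteine cathepsins K, S, H and B were all higher in EOM. Over the mean of the ages 6 of 11 cathepsin probe sets were called, all higher in EOM, where 22.3% of all probe sets were called higher and 42.3% in either direction. The median log2 difference was 0.33 over the 11 and -0.06 over all probe sets tested. At 6 months 4 of 11 were called, all higher (11.6% of all probe sets), and at 18 months 7 of 11, all higher (14.1%). At 30 months 1 was called higher, Ctse (11.4%), and 1 lower, the brighter Ctsl probe set (7.79%). By position alone, 6 of 11 at 6 months (12.8% of all) and 7 at 18 months (15.4%) had every EOM array above every EDL array. At 30 months 1 did (11.8%), and 1 had every EOM array below (10.5%). The rule of no overlap and a ratio of means over 2 took 2, 4 and 1 at 6, 18 and 30 months, all higher in EOM (7.56%, 9.53% and 7.12% of all). Ctse is in each of these counts of probe sets higher in EOM, and it met the brightness filter through its EOM groups alone.

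Cathepsin K (Ctsk, 29175), a collagen-degrading cysteine protease, had the second largest difference. On the EOM arrays, replicates 1 to 4 read 447, 662, 326 and 345 units at 6 months, 452, 545, 624 and 327 at 18 months, and 469, 421, 153 and 321 at 30 months. On the EDL arrays they read 167, 300.3, 200.2 and 221.5 units at 6 months, 134, 14.9, 169.9 and 103 at 18 months, and 36.9, 133, 226 and 144 at 30 months. The arrays of the muscles did not overlap at 6 and 18 months and did at 30 months. Averaged over the ages, Ctsk in EOM was 3.14-fold its EDL level (log2 difference 1.65, SE 0.31, limma adjusted p = 0.000107). It was called at 18 months (log2 2.49, adjusted p = 0.0011) and not at 6 (0.98, 0.234) or 30 months (1.48, 0.0512). The 18-month value rests in part on replicate 2 of EDL, at 14.9 units, which is at the floor, and without that array the log2 difference was 1.84 and still called (adjusted p = 0.00564). At 30 months replicate 3 of EOM (153 units) was the lowest of its group, and without it the difference was called (1.83, adjusted p = 0.0242). Replicate 1 of EDL (36.9 units) was the lowest of its own group, and without it the difference at 30 months was 0.95 (adjusted p = 0.227). Of 24 fits that each left out 1 array, 4 called that difference.

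Cathepsin S (Ctss, 50654), which trims the invariant chain of class II molecules, followed. On the EOM arrays, replicates 1 to 4 read 1248, 1477, 678 and 1109.7 units at 6 months, 1057, 1035, 1349 and 1034 at 18 months, and 1484, 1405, 454 and 1009 at 30 months. On the EDL arrays they read 430.3, 561, 1041 and 617 units at 6 months, 484, 171, 539 and 457 at 18 months, and 444, 443, 669.8 and 583 at 30 months. At 18 months all 4 EOM arrays lay above all 4 EDL arrays, and at 6 and 30 months replicate 3 of EOM fell within the EDL range. The EOM level of Ctss over all ages was 2.12-fold that of EDL (log2 difference 1.08, SE 0.21, adjusted p = 0.000151). At 6, 18 and 30 months the log2 differences were 0.79, 1.56 and 0.91 (limma adjusted p = 0.144, 0.00232 and 0.0797). Without replicate 3 of EOM at 30 months the difference at that age was 1.28 and was called (adjusted p = 0.00977). Without replicate 3 of EDL at 6 months that at 6 months was 1.03 (adjusted p = 0.0546). Without replicate 2 of EDL at 18 months (171 units, the lowest of its group) the difference at 18 months was 1.17 and still called (adjusted p = 0.0147).

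The gene most like Ctss was C1qb, a complement subunit made by macrophages (r 0.931 over 24 arrays), followed by Serping1 (0.91) and Pf4 (0.909). C1qb was picked over these same arrays, so likeness to Ctss on single arrays is in part given by the choice. On replicate 3 of EDL at 6 months, C1qb read 1184 units and Ctss 1041, each the highest of its group. That array also had the highest Lyz2 (2034 units), Lgals3 (2033) and Cd74 (1514) of its group. On replicate 3 of EOM at 30 months C1qb read 381 units and Ctss 454, each the lowest of its group. They did not go together in EOM at 18 months, where replicate 3 had the highest Ctss (1349 units) and the lowest C1qb (1011.9), and C1qb was highest on replicate 2 (1440.9). Over the mean of the ages Fcgr2b (log2 0.84), C1qb (0.83) and Lyz2 (0.63) were the 3 of 8 tested macrophage genes called, all higher in EOM. Their median was 0.47, against -0.04 over all genes. Itgam was at the floor on all arrays of 5 of the 6 groups. Of 8 tested genes of class II antigen presentation, 0 were called over the mean of the ages. Beside both counts, 23.4% of all named genes tested were called higher in EOM in that comparison and 20% lower. The part of macrophages in the Ctss difference was not tested.

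**Figure D3:**
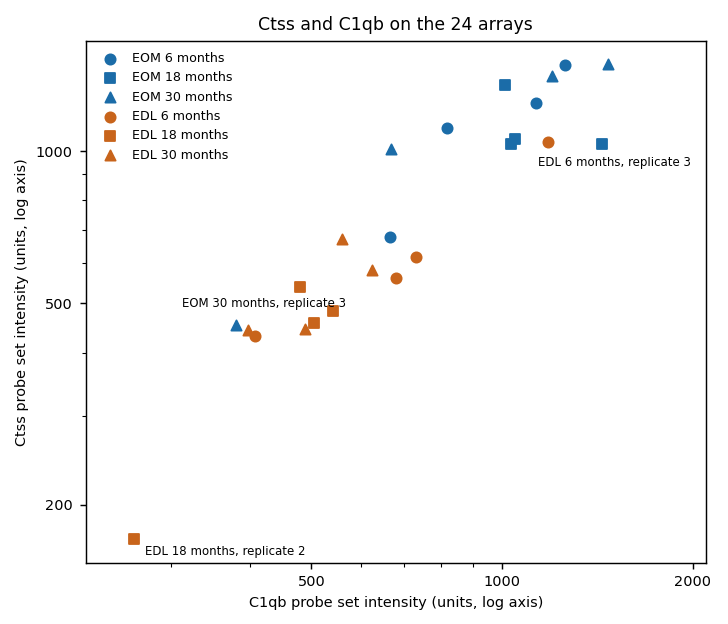
Ctss against C1qb intensity on the 24 arrays (units, log axes), with EOM in blue and EDL in orange and the ages as different symbols. Replicate 3 of EDL at 6 months lies among the EOM arrays, and replicate 3 of EOM at 30 months lies among the EDL arrays.

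Cathepsin H (Ctsh, 25425), an aminopeptidase, was called at 2 ages. On the EOM arrays, replicates 1 to 4 read 1121, 1461, 955 and 907 units at 6 months, 1047, 1029, 1284 and 849 at 18 months, and 1269, 983, 683 and 806 at 30 months. On the EDL arrays they read 619, 589, 868 and 595 units at 6 months, 495, 454, 657 and 492 at 18 months, and 664, 608, 715 and 553 at 30 months. At 6 and 18 months the muscles did not overlap, and at 30 months replicate 3 of EOM fell within the EDL range. Over the mean of the ages the difference was 1.69-fold (log2 0.75, SE 0.12, adjusted p = 1.16e-05), with 0.73 at 6 months (limma adjusted p = 0.0129), 1.00 at 18 months (0.000684) and 0.53 at 30 months (0.071). The call at 6 months was lost without replicate 2 of EOM (0.59, adjusted p = 0.0619) and with arrays centred on their medians (0.65, adjusted p = 0.0605). Without replicate 3 of EOM at 30 months Ctsh was called at that age too (0.66, adjusted p = 0.0305). Its closest genes were C1s (r 0.947), Ifitm3 (0.923) and Timp2 (0.917).

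Cathepsin B (Ctsb, 64529), an endopeptidase that also removes dipeptides from the ends of proteins, was among the brighter members, and its difference was the smallest of these 4. On the EOM arrays, replicates 1 to 4 read 2615, 3132, 1832 and 2243 units at 6 months, 2654, 2724.5, 2560 and 2477 at 18 months, and 2932, 2968, 1604 and 2157 at 30 months. On the EDL arrays they read 1477, 1089.5, 2121 and 1537 units at 6 months, 1509, 1166, 1613 and 1624 at 18 months, and 1408.5, 2144, 2117.5 and 1888 at 30 months. The muscles overlapped at 6 and 30 months and did not at 18 months. For Ctsb the ratio over all ages was 1.53-fold, higher in EOM (log2 difference 0.61, SE 0.12, limma adjusted p = 0.000292), with 0.67, 0.83 and 0.33 at 6, 18 and 30 months (adjusted p = 0.0299, 0.00573 and 0.32). The call at 6 months was lost in 8 of 36 alternatives, which included leaving out replicate 1, 2 or 4 of EDL or replicate 1 or 2 of EOM at that age (adjusted p = 0.0519 to 0.125). Within replicates 3 and 4 the mean difference was 0.23 and not called (adjusted p = 0.211). Its closest genes were Apoe and Apod (r 0.888 each) and Timp2 (0.88).

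**Figure D4:**
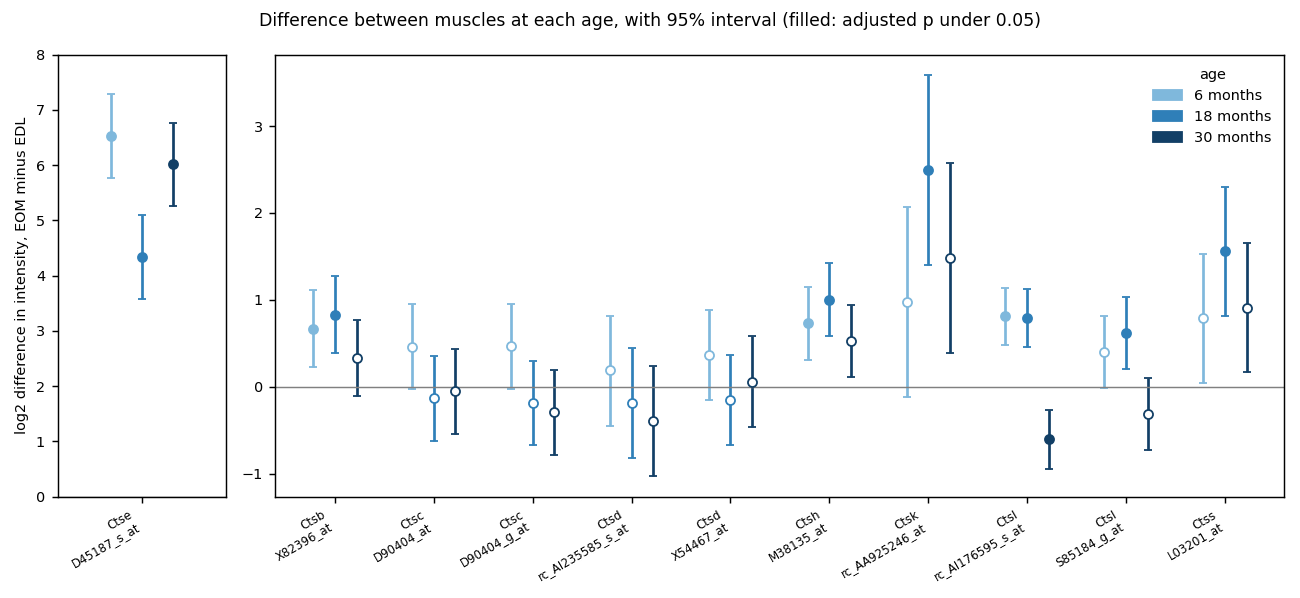
Log2 difference in intensity, EOM minus EDL, at 6, 18 and 30 months (light to dark) for the 11 cathepsin probe sets, with 95% intervals and Ctse on its own axis. Filled points have an adjusted p under 0.05. The brighter Ctsl probe set is above 0 at 6 and 18 months (0.81 and 0.79) and below 0 at 30 months (-0.60).

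Cathepsin C (Ctsc, 25423), the dipeptidyl peptidase that activates granule proteases of immune cells, did not pass in any comparison. Means of its brighter probe set were 1061 ± 159, 1113 ± 207 and 1023 ± 330 units in EOM at 6, 18 and 30 months and 785.5 ± 198, 1203 ± 66.1 and 1045 ± 253 in EDL. The log2 difference over the mean of the ages was 0.09, with a 95% interval of -0.19 to 0.38. In EDL the 4 arrays at 18 months lay above the 4 at 6 months (1142, 1295, 1173 and 1200.1 units against 891, 488, 876 and 886.5), a log2 change of 0.66 that was not called (limma adjusted p = 0.415). The second probe set had a change of 0.57 (adjusted p = 0.501), with overlap.

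Cathepsin D (Ctsd, 171293), the main aspartic protease of lysosomes, did not pass either. Over all 24 arrays its brighter probe set, X54467_at, read 1944 to 5869 units, and the other, rc_AI235585_s_at, 1109.6 to 4703. Their log2 differences over the mean of the ages were 0.09 (95% interval -0.21 to 0.39) and -0.13 (-0.50 to 0.24). In EDL at 30 against 6 months the changes were 0.46 (adjusted p = 0.585) and 0.81 (0.27). The second set was called in that comparison without replicate 4 of EDL at 6 months, at 3153 units the highest of its group (1.10, adjusted p = 0.0444).

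The brighter Ctsd set varied with the replicate number. Replicate 3 was the lowest of its 4 arrays in all 6 groups, on average 0.51 below the group mean on the log2 scale. Its replicate 3 values were 2776, 2498.5 and 2963 units in EOM at 6, 18 and 30 months and 1944, 2929 and 2488 in EDL. With the replicate number as a block, the difference between the muscles at 6 months (log2 0.37) was called (adjusted p = 0.0384), and without the block it was not (adjusted p = 0.356). In the other Ctsd probe set replicate 3 was the lowest in 3 of the 6 groups. The sources used here do not say what replicate numbers share.

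**Figure D5:**
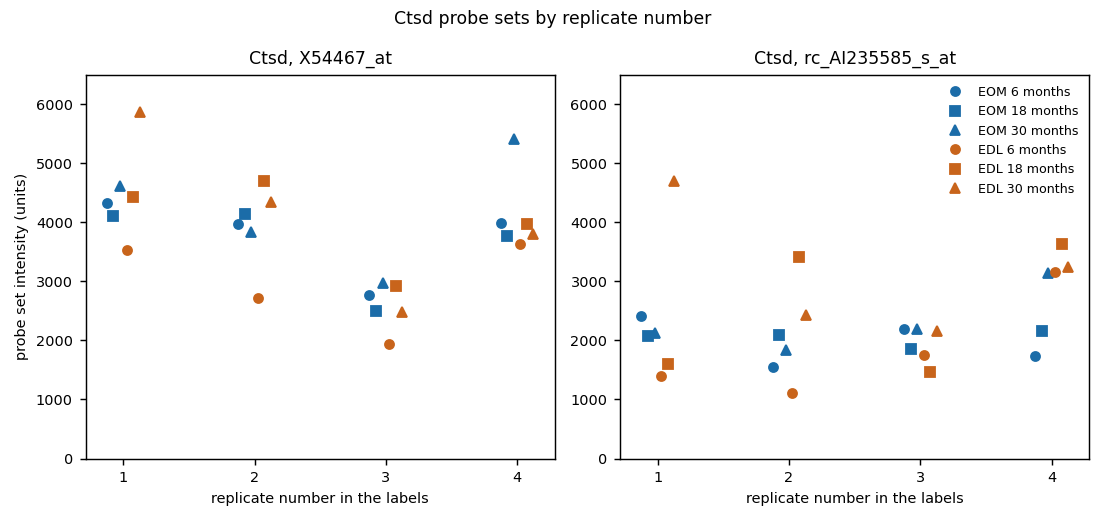
Intensity (units) of both Ctsd probe sets on every array, by the replicate number in the labels. Symbols are the ages, with EOM in blue and EDL in orange. In X54467_at the 6 points of replicate 3 lie between 1944 and 2963 units, and in rc_AI235585_s_at they lie within the spread of the other replicates.

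The shares called higher in EOM among lysosomal enzymes, pump subunits and trafficking genes were near that over all named genes tested (23.4%). Of all named genes tested 20% were called lower and 43.4% either way. Of 16 tested genes of lysosomal enzymes and membrane proteins 4 were higher in EOM over the mean of the ages and none lower, with a median log2 difference of 0.07 against -0.04 over all genes. These were Ppt1, which removes palmitate from proteins (log2 2.28, SE 0.12), Man2b1, a mannosidase (0.66), Arsb, a sulfatase (0.51), and Lipa, the lysosomal lipase (0.29). Ppt1 also fell in EOM at 18 against 6 months (-1.0, SE 0.20, limma adjusted p = 0.0318). Of 8 subunits of the proton pump, which acidifies lysosomes, 2 were higher (Atp6v1a and Atp6ap1) and 1 lower (Atp6v1f). Of 11 genes of lysosomal sorting and trafficking 2 were higher and 3 lower, the largest fall being Cltb, a clathrin light chain (-0.65).

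Of 5 tested cathepsin inhibitors, the cystatins Cst3 (0.42) and Cstb (0.32), which block cysteine cathepsins, were higher in EOM and the kininogen Kng2 (-0.86) was lower, with a median of -0.30. These differences and the next are over the mean of the ages, where 23.4% of all named genes tested were called higher and 20% lower. In the other pathways, all 3 tested muscle ubiquitin ligases were lower, Trim63 by the most (-1.34, SE 0.13). Of 7 autophagy genes Map1lc3a was higher (0.46) and Sqstm1, a cargo receptor, lower (-0.96). Of 7 calpain genes Capn6 was higher (1.47) and Capn3, the muscle calpain, lower (-0.61). In EDL at 30 against 6 months, where Ctsl rose, limma called none of the tested genes in these 7 lists. There 1.7% of all named genes tested were called either way, so few calls would be found in lists this short. At 30 against 18 months 1 was called, Trim63 (0.92, adjusted p = 0.0317), where 1.49% of all were. Of 13 other listed cathepsins 1 was measured, Ctsj, which was too dim to be tested (6.1 to 97 units over the arrays).

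Sequence upstream of the members was read from RefSeq (build GRCr8) for 7 of the 8 genes, and 5 are printed, 4 of genes that carry the differences above and that of Ctsd, which did not pass, to set beside Ctsl. Ctse had the largest gap between muscles, Ctsk and Ctss lie near each other on chromosome 2 and were both higher in EOM, and Ctsl changed with age. Each is printed 5′ to 3′ on the strand of its gene up to the annotated gene start, at chr13:45643965-45644167 for Ctse, chr17:769854-770103 for Ctsl, chr2:185747298-185747547 for Ctsk and chr2:185775146-185775315 for Ctss, all on the plus strand, and at chr1:206968822-206969071 for Ctsd on the minus strand. The capitals mark matches on either strand to CACGTG (an E-box of the kind bound by lysosomal regulators), GAAANNGAA (most of the core of interferon-response elements), the TATA box TATAAA, the GC box GGGCGG or the sequence CCAAT.
Ctse: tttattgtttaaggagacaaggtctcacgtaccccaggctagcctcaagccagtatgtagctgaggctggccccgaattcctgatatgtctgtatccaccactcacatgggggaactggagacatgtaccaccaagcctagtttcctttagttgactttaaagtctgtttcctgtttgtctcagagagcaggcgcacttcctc
Ctsl: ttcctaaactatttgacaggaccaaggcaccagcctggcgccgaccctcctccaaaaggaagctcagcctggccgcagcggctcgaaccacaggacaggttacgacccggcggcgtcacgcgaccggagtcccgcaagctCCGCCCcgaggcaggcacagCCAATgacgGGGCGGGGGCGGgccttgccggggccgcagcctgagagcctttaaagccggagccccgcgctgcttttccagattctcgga
Ctsd: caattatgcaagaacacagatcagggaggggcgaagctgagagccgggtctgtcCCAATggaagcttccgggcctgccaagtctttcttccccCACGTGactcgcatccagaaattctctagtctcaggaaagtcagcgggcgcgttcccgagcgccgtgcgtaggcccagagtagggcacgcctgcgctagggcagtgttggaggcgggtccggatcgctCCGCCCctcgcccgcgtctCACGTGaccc
Ctsk: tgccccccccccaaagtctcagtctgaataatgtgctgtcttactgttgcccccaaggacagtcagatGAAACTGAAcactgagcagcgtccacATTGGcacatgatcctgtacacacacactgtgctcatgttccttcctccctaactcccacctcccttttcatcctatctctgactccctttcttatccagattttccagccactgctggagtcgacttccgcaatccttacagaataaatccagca
Ctss: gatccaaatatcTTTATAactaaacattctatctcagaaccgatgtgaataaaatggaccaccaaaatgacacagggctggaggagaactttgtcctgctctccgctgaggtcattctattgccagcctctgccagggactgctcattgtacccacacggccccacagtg

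Windows of 300 bases, reaching 250 before and 50 after the start site of the promoter table, were searched on both strands, and 33469 such windows gave the background. Ctsd held CACGTG at 2 places, 157 and 10 bases before that site, a motif present in 6.42% of all windows, and none of the other 6 held it. Ctsl held GGGCGG at 3 places, 2 of them side by side, a motif present in 33.1% of windows. Ctsc, Ctsd and Ctsh each held it at 1 place, which in Ctsh was 28 bases after the table's start site. Ctsl, Ctsd, Ctsk and Ctss each held CCAAT (37.5% of windows). In Ctss that match lay 17 bases after the table's start site, so it is not among the bases printed above. Ctss also held TATAAA (14.2%), 238 bases before that site. Ctss and Ctsk each held GAAANNGAA (9.71% of windows), 36 and 182 bases before the table's start site. For Ctss that site lies inside the annotated gene, so the match falls after the bases printed above, at chr2:185775352-185775376.
Ctss match: ctttaaatGAAACCGAAatgaaagt
Ctse held none of the 5 motifs in its window. A match is a description of the letters, and none of these arrays measured binding.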

How the data were processed

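Total RNA of 24 pools, each from 4 rats, was run on the Rat Genome U34 arrays of Affymetrix. The authors computed 1 linear intensity per probe set and array with Microarray Suite 5.0 (MAS5), as stated per the labels' design text and in the submitters' processing notes. Those deposited intensities were used as scaled by the authors. The labels name the dyes Cy3 and Cy5, whereas that design text describes biotin with streptavidin. With a single value for each probe set on an array, the data were taken as 1-colour, and the doubt about the stain remains. Detection calls were not used here.

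From the 8799 probe sets 59 controls were removed. Values under the 25th percentile of their array were set to it, and log2 of these deposited intensities was used. Testing required values above the 40th percentile of the array (53.8 to 83.8 units) on 3 of the 4 arrays of some group, which 5741 met. All 24 arrays entered 1 limma model with a mean for each of the 6 groups (limma 3.58.1, R 4.3.3, eBayes with an intensity trend, 18 residual degrees of freedom, two-sided, Benjamini-Hochberg adjustment). The fit was tested on simulated data. The shared variance assumes that both muscles vary alike.

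The cathepsins and the gene lists were chosen with earlier results of these data known. All 11 cathepsin probe sets are described. The 3 genes with the highest Pearson correlation to each member's brightest probe set are named, and from each list up to 4 called genes in a direction. Of 8740 probe sets 7006 had 1 gene symbol, 308 several and 1426 none, and only the first were named.

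Replicate numbers were checked for pairing. Of 60 same-numbered pairs of samples, correlations of deviations from the group means were -0.00753 to 0.527, and 53 were over 0.1. All 4 pairs were over 0.1 for EOM against EDL at 6 months, EDL at 30 against 6 months and the 3 age comparisons of EOM, so the numbers were taken as pairing there, from the values and not from the labels. Alternatives were other floors, filters, normalizations and variance models, each muscle alone, a replicate block, replicates 1 and 2 or 3 and 4 alone, each array left out, and a rule of no overlap with a ratio of means over 2. Leaving out replicate 3 of every group was chosen after seeing the data.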

Additional observations from a re-analysis of the deposited data

Results flagged for a closer look

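In 7 of 66 groups of 4 arrays, 1 array lay far from the other 3, where chance marks about 1 group in 20. For the brighter Ctsc probe set, replicate 2 of EDL at 6 months read 487.9 units while the other 3 read 876.2 to 891.3. Replicate 1 of EDL at 30 months read 669.5 units while the other 3 read 1121.9 to 1201.5. For the dimmer Ctsc probe set, replicate 2 of EOM at 6 months read 434.9 units, above 314.9 to 332.8 on the others. Ctse read 39.8 units on replicate 2 of EDL at 30 months, above 22.1 to 23.1 on the others, all of which were at the floor. Ctsh read 867.7 units on replicate 3 of EDL at 6 months, above 588.9 to 619.1, on the array that was also highest of its group in C1qb, Lyz2, Lgals3 and Cd74. The dimmer Ctsl probe set read 307 units on replicate 1 of EDL at 6 months, below 474.9 to 507.7. Ctss read 1349 units on replicate 3 of EOM at 18 months, above 1033.8 to 1056.8.

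The change of the brighter Ctsl probe set with age differed between the muscles by limma's interaction test. The EOM change less the EDL change was -1.41 on the log2 scale for 30 against 6 months (adjusted p = 0.00198) and -1.40 for 30 against 18 months (adjusted p = 0.00204). The dimmer probe set had -0.70 and -0.92 and was not called.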

How the results depend on the processing

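Of 5214 log2 values of single cathepsin probe sets under other settings, 42 gained a call, 30 lost one and none that was called changed sign, while 152 uncalled values did. The counts below are of called cathepsin probe sets out of 11, and for each the cause of a change was not tested unless one is named. For EOM against EDL the count over the mean of the ages, 6, was 3 with replicates 3 and 4 alone. At 6 months, 4 became 2 with arrays centred on their medians, 1 with replicates 3 and 4 alone, and 2 by the rule of no overlap and a ratio over 2. At 18 months, 7 became 3 with replicates 3 and 4 alone and 4 by the no-overlap rule. At 30 months, 2 became 4 with array weights, 5 with replicates 1 and 2 alone, 5 without replicate 3 of every group (chosen after seeing the data), and 1 both with replicates 3 and 4 alone and by the no-overlap rule. In EDL at 30 against 6 months, 1 became 2 with the replicate block and 0 with replicates 3 and 4 alone. At 30 against 18 months, 1 became 2 with the floor at the 10th percentile, with log2(value + 50 units), with the filter at the 60th percentile and with the replicate block, each time by adding the dimmer Ctsl probe set (adjusted p = 0.019 to 0.0499), and 0 with replicates 3 and 4 alone. For any age effect in EDL, 1 became 2 with the filter at the 60th percentile and with the replicate block, and 0 with replicates 3 and 4 alone. In EOM at 18 against 6 months, 0 became 1, Ctse, with log2(value + 50 units), quantile normalization, median centring, array weights, the replicate block and the no-overlap rule. For any age effect in EOM, 0 became 1 with log2(value + 50 units), median centring and array weights. The ageing responses at 30 against 6 and at 30 against 18 months, 1 each, were both 0 with replicates 3 and 4 alone, and that at 18 against 6 months, 0, was 1 (Ctse) with array weights. Halving the replicates leaves 2 arrays a group, and the calls of the brighter Ctsl probe set were lost with replicates 3 and 4 alone and under no other setting of the limma fit that was run.

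Leaving out each array in turn gave 6 to 7 calls for EOM against EDL over the mean of the ages, 2 to 4 at 6 months, 6 to 7 at 18 months and 2 to 5 at 30 months. The age comparisons gave 1 to 2 in EDL at 30 against 6 months, 0 to 0 at 18 against 6 months and 1 to 2 at 30 against 18 months. In EOM they gave 0 to 0, 0 to 1 and 0 to 0 in the same order. Any age effect gave 0 to 0 in EOM and 1 to 2 in EDL. The ageing responses gave 1 to 1, 0 to 1 and 1 to 2. The count of 2 at 6 months came without replicate 2 of EOM at 6 months. At 30 months 5 came without replicate 3 of EOM at 30 months and 4 without replicate 2 of EDL at 18 months. In EDL, 2 came at 30 against 6 months without replicate 4 at 6 months, and at 30 against 18 months without replicate 1 of EDL at 6 months or of EOM at 30 months. The 2 for any age effect in EDL came without replicate 4 of EDL at 6 months or replicate 1 of EOM at 30 months. The added calls among the ageing responses, without replicate 2 of EDL at 18 months, were Ctse, whose EDL arrays lay at or near the floor, so these calls rest on background values. Ctse was called in EOM at 18 against 6 months without that array or without replicate 1 of EOM at 30 months.

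Where the values did not meet the pairing check, the replicate block added the dimmer Ctsl probe set in EDL at 30 against 18 months (adjusted p = 0.019) and Ctsh between the muscles at 30 months (adjusted p = 0.0409). Apart from these, the blocked calls given beside Ctse, Ctsl and Ctsd, and the second call for any age effect in EDL, the block changed no other call. In 45 of 60 pairs a sample correlated best with its own number. Fitting each muscle on its own applies to age comparisons only, and the no-overlap rule to comparisons of 2 groups only. Signal over background limits Ctse and Ctsk in EDL, where arrays lay at or near the floor. Pools of 4 animals hide the spread between animals, and intensities of different probe sets cannot be compared as amounts.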
